A study of Mus musculus with 12 samples.

Results

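Krt8, Krt18, Krt19 and Krt7 encode the simple epithelial keratins, and their array signal was followed across sorted prostate epithelial cells of the mouse. They are 4 of the 22180 genes that had a probe set with a single gene symbol. Each was read from the brightest such probe set, and all 4 were among the 20135 genes tested. The arrays held RNA from prostate epithelium of wild-type male mice that were hormone-naïve, as the labels put it, and the labels give no age. Every library came from cells negative for CD45, CD31 and Ter119, which mark immune, endothelial and erythroid cells in turn, and its RNA was amplified with the NuGEN Ovation V2 system before hybridization. The cells were sorted on the surface proteins Sca1 and CD49f into 3 gates and on the surface protein LY6D into a positive and a negative class, which gave 6 groups of 2 libraries. The luminal gate (low Sca1, low CD49f) came from mice 4 and 5. The Sca1-high gate (high Sca1, CD49f-positive) came from mice 1 and 5. The basal gate (intermediate Sca1, CD49f-positive) came from mice 3 and 5, so mouse 5 stands in every group and libraries of a mouse are not independent.

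Keratins build intermediate filaments from pairs of a type II and a type I protein. Krt8 and Krt7 are type II keratins, Krt18 and Krt19 are type I keratins, and Krt8 with Krt18 is the pair of most single-layered epithelia. In the prostate, Krt8 and Krt18 are in wide use as markers of the luminal secretory cells, and Krt5 with Krt14 as markers of the basal cells; Krt19 and Krt7 are typical of ducts and of transitional epithelium.

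Whether these keratins mark luminal cells was checked first. Mean signal in the basal and luminal gates was 10.09 and 10.11 for Krt8 and 11.00 and 10.70 for Krt18 (log2), with 8.40 and 9.07 in the Sca1-high gate. Krt7 had its lowest gate mean in the luminal gate. Krt19 had its highest there (6.62, against 6.10 in basal and 5.74 in Sca1-high cells). A higher mean in luminal than in basal cells was thus not shared by the 4 genes, and they are called here by their names. No member passed the test in any of the 10 comparisons of gates and LY6D classes. At most 0.417% of all genes tested passed in any of them, a share at which 4 genes would seldom hold a call. What stood out was 1 library, the LY6D+ Sca1-high library of mouse 5, in which Krt8, Krt18 and Krt19 were all at their lowest.

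Krt8 and Krt18 lie next to each other on mouse chromosome 15, on opposite strands, with 0 protein-coding genes between them in the RefSeq annotation of GRCm38.p6. Krt7 lies on the same chromosome between Krt80 and Krt87, and Krt19 on chromosome 11 between Krt15 and Krt9, in the type I keratin cluster. The promoter sequences are shown because Krt8 and Krt18 are filament partners with adjacent genes and had the highest Pearson correlation of the members on their brightest probe sets, with Krt7, which ran apart from them, for contrast. They are the 250 bases before the start of each gene from RefSeq (GRCm38.p6), printed 5′ to 3′ on the gene's strand: chr15:102004343-102004592 (minus strand) for Krt8, chr15:102027966-102028215 (plus strand) for Krt18 and chr15:101412153-101412402 (plus strand) for Krt7. Capitals mark the matches to the motifs given after the sequences.
Krt8: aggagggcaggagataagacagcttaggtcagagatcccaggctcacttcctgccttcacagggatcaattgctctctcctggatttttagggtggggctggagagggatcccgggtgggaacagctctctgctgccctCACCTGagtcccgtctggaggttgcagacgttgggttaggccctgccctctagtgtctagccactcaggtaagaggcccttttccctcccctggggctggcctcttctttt
Krt18: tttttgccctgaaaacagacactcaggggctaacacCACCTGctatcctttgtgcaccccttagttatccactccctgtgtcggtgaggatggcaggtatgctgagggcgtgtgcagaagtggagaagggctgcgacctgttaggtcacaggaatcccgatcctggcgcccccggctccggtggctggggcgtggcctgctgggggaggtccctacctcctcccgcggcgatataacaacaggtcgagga
Krt7: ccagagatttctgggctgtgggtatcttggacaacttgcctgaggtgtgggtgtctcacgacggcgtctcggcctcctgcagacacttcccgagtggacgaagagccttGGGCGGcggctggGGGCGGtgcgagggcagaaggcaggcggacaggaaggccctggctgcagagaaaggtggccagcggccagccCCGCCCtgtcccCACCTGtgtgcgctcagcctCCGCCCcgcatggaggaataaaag
Each promoter was searched on both strands for the TATA box as TATAAA, the GC box as GGGCGG, the CCAAT box by its own letters, the AP-1 motif as TGANTCA, an E-box as CAGGTG and a grainyhead motif as AACCNGTT. Each of the 3 held 1 match to CAGGTG, read as CACCTG, a motif found in 17.2% of the 32851 promoter windows of the same length. Krt7 also held 4 matches to GGGCGG, found in 32.7% of windows, and none of the matches overlapped. The TATA box, CCAAT box, AP-1 and grainyhead letters were not found in these 3 windows and occurred in 12.4%, 33.8%, 6.75% and 1.79% of all windows. The GC content was 58.0% for Krt8, 60.4% for Krt18 and 66.0% for Krt7, against a median of 52.4% over all windows.

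Krt8, the type II partner of Krt18, had a log2 signal of 10.18 (mouse 4) and 10.07 (mouse 5) in the luminal LY6D+ libraries and of 9.63 and 10.57 in the luminal LY6D- libraries of the same mice. In the Sca1-high gate it was 9.74 (mouse 1) and 6.48 (mouse 5) in the LY6D+ and 8.45 and 8.95 in the LY6D- libraries. In the basal gate it was 10.06 (mouse 3) and 10.53 (mouse 5) in the LY6D+ and 8.88 and 10.91 in the LY6D- libraries. The luminal libraries lay within the range of the basal ones. The Sca1-high libraries overlapped both gates at their upper end (9.74 against 9.63 in a luminal and 8.88 in a basal library), and 1 of them lay far below all others. The gate means were 10.11 ± 0.39 in luminal, 10.09 ± 0.88 in basal and 8.40 ± 1.39 in Sca1-high cells (SD, n = 4 each). Without the LY6D+ library of mouse 5 the Sca1-high mean was 9.04 ± 0.65 (n = 3).

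Krt18, the type I partner of Krt8, gave 10.82 (mouse 4) and 10.31 (mouse 5) in the luminal LY6D+ and 10.53 and 11.14 in the luminal LY6D- libraries. In the Sca1-high gate it gave 10.49 (mouse 1) and 5.30 (mouse 5) in the LY6D+ and 10.02 and 10.45 in the LY6D- libraries. In the basal gate it gave 11.21 (mouse 3) and 11.60 (mouse 5) in the LY6D+ and 10.13 and 11.07 in the LY6D- libraries. Apart from the 1 low library, the 11 others lay within 10.02 to 11.60 and the gates overlapped. The gate means were 10.70 ± 0.36 in luminal, 11.00 ± 0.62 in basal and 9.07 ± 2.52 in Sca1-high cells (SD, n = 4 each), the last rising to 10.32 ± 0.26 (n = 3) without the low library.

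Krt19, a type I keratin of ductal epithelium, gave 6.41 (mouse 4) and 6.68 (mouse 5) in the luminal LY6D+ and 6.16 and 7.24 in the luminal LY6D- libraries. In the Sca1-high gate it gave 6.21 (mouse 1) and 4.56 (mouse 5) in the LY6D+ and 6.19 and 5.99 in the LY6D- libraries. In the basal gate it gave 6.11 (mouse 3) and 6.54 (mouse 5) in the LY6D+ and 4.99 and 6.77 in the LY6D- libraries. All 3 gates overlapped, and the 2 lowest libraries were the Sca1-high LY6D+ library of mouse 5 and the basal LY6D- library of mouse 3. The gate means were 6.62 ± 0.46 in luminal, 6.10 ± 0.79 in basal and 5.74 ± 0.79 in Sca1-high cells (SD, n = 4 each).

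Krt7, a type II keratin of ducts and transitional epithelium, was dimmest in the luminal gate on average. It gave 5.08 (mouse 4) and 4.23 (mouse 5) in the luminal LY6D+ and 4.88 and 4.69 in the luminal LY6D- libraries. In the Sca1-high gate it gave 6.66 (mouse 1) and 4.52 (mouse 5) in the LY6D+ and 5.58 and 6.33 in the LY6D- libraries. In the basal gate it gave 5.83 (mouse 3) and 6.37 (mouse 5) in the LY6D+ and 5.07 and 6.17 in the LY6D- libraries. The luminal libraries were the dimmest apart from the Sca1-high LY6D+ library of mouse 5, and the brightest luminal library overlapped the dimmest basal one by under 0.01. The gate means were 4.72 ± 0.36 in luminal, 5.86 ± 0.57 in basal and 5.77 ± 0.95 in Sca1-high cells (SD, n = 4 each), the last 6.19 ± 0.55 (n = 3) without the LY6D+ library of mouse 5.

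**Figure D1:**
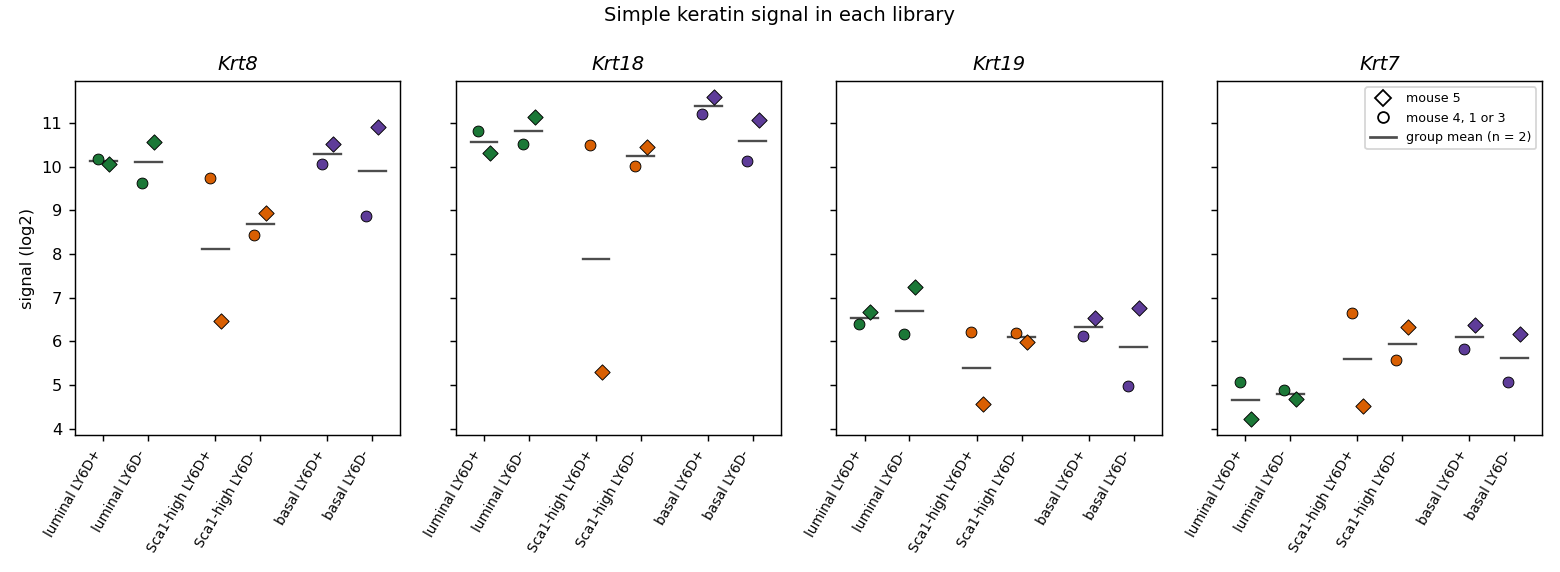
Log2 array signal (y axis, shared) of Krt8, Krt18, Krt19 and Krt7 in each of the 12 libraries, by gate and LY6D class (x axis). Points are libraries, diamonds those of mouse 5, and lines the mean of the 2 libraries of a group. The Sca1-high LY6D+ library of mouse 5 is the lowest for Krt8 (6.48), Krt18 (5.30) and Krt19 (4.56), while Krt7 was dimmer in the luminal than in the basal gate on average.

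By group mean, Krt8 ran from basal LY6D+ (10.29 ± 0.33) through luminal LY6D+ (10.13 ± 0.08), luminal LY6D- (10.10 ± 0.67), basal LY6D- (9.89 ± 1.43) and Sca1-high LY6D- (8.70 ± 0.35) to Sca1-high LY6D+ (8.11 ± 2.31; SD, n = 2 each). Krt18 had basal LY6D+ at the top (11.40 ± 0.28) and Sca1-high LY6D+ at the bottom (7.90 ± 3.67), and Krt7 had basal LY6D+ at the top (6.10 ± 0.38) and luminal LY6D+ at the bottom (4.65 ± 0.60). Krt19 ran from luminal LY6D- (6.70 ± 0.77) to Sca1-high LY6D+ (5.38 ± 1.16). For Krt8 the widest step between neighbours, from basal LY6D- to Sca1-high LY6D-, was smaller than the SD of 1.43 in basal LY6D-. For Krt18 the widest, from Sca1-high LY6D- (10.24 ± 0.30) to Sca1-high LY6D+, was smaller than the SD of 3.67 in the latter.

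The basal and luminal gates were compared to ask whether these keratins separate the prostate's main epithelial layers. Krt8 differed by -0.02 ± 0.68 (log2, basal minus luminal, SE from limma) and Krt18 by 0.30 ± 0.89. Both 95% intervals were wide, from -1.54 to 1.50 for Krt8 and from -1.71 to 2.31 for Krt18, so the test does not show that the gates were alike. Their width rests on a spread shared by all groups, with the Sca1-high LY6D+ group among them. The SD in that group was 2.31 for Krt8 and 3.67 for Krt18. In the basal and luminal groups it was 0.08 to 1.43 for Krt8 and 0.28 to 0.67 for Krt18. Krt19 was at -0.52 ± 0.47. Krt7 was 1.14 ± 0.47 brighter in the basal gate, with an interval of 0.08 to 2.20 and an unadjusted p of 0.0373 in limma, but its Benjamini-Hochberg adjusted p over all genes was 0.479. The adjusted p of the others was 0.999, 0.983 and 0.871 for Krt8, Krt18 and Krt19. In this comparison 0 of 4 members passed the threshold of 0.05, where 0.417% of all genes tested did (84 genes).

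The Sca1-high gate was set against the luminal gate. Krt8 was at -1.71 ± 0.68 (log2, interval -3.23 to -0.19), Krt18 at -1.63 ± 0.89, Krt19 at -0.89 ± 0.47 and Krt7 at 1.05 ± 0.47. Their limma adjusted p was 0.548, 0.666, 0.657 and 0.598, so 0 of 4 were called beside 0.139% of all genes. The size of the differences, that of Krt18 above all, depended on 1 library, the LY6D+ one of mouse 5, but each direction held without it. For Krt8 the Sca1-high LY6D- libraries (8.45 and 8.95) also lay below the lowest luminal library (9.63). The Sca1-high LY6D+ library of mouse 1 (9.74) did not. Without the Sca1-high LY6D+ library of mouse 5, the differences were -0.89 for Krt8, -0.33 for Krt18, -0.47 for Krt19 and 1.59 for Krt7 (lowest limma adjusted p of the 4, 0.334, for Krt7). Leaving out instead the other Sca1-high LY6D+ library, that of mouse 1, gave a called Krt18 difference of -2.93 (limma adjusted p = 0.00985). The Sca1-high LY6D+ group then held only the low library of mouse 5, which is assumed to vary like the other groups, so its own spread is not in that p.

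Between the Sca1-high and basal gates Krt8 was at -1.69 ± 0.68, Krt18 at -1.93 ± 0.89, Krt19 at -0.37 ± 0.47 and Krt7 at -0.09 ± 0.47 (log2, Sca1-high minus basal). The limma adjusted p was 0.481, 0.514, 0.784 and 0.949, and 0 of 4 passed beside 0.00993% of all genes. Without the LY6D+ Sca1-high library of mouse 5 these differences were -0.88, -0.63, 0.05 and 0.44. Without that of mouse 1 Krt18 was again called, at -3.23 (limma adjusted p = 0.0106), with the same group of 1 library. With mouse as a fixed block the genes called rose from 28 to 104 for Sca1-high against luminal and from 2 to 80 for Sca1-high against basal, and 0 of 4 members were among them. In bulk RNA, fewer cells of a type and less of an RNA per cell cannot be told apart.

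**Figure D2:**
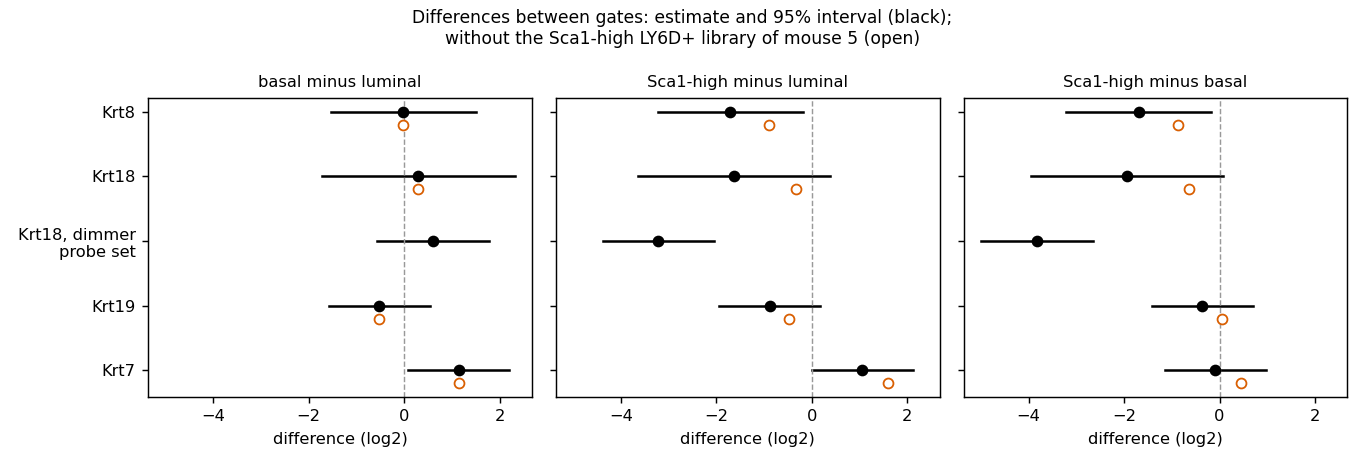
Difference in log2 signal between gates (x axis) for the 4 genes and for the dimmer Krt18 probe set (y axis). Black points and bars are the limma estimate and its 95% interval over 12 libraries, and open circles the estimate without the Sca1-high LY6D+ library of mouse 5 (not drawn for the dimmer probe set). For the Sca1-high gate, the Krt8 estimates of -1.71 and -1.69 move to -0.89 and -0.88 without that library.

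Within mouse 5 alone, the comparison that holds the animal fixed, the basal minus luminal differences were 0.40 for Krt8, 0.61 for Krt18, -0.31 for Krt19 and 1.81 for Krt7. The Sca1-high minus luminal differences in mouse 5 were -2.61, -2.85, -1.69 and 0.96. Over mice 1, 3 and 4, in which each gate came from a different animal, the Sca1-high minus luminal differences were -0.81, -0.42, -0.08 and 1.14. Krt7 was therefore brighter in the Sca1-high than in the luminal gate in both subsets, while Krt8, Krt18 and Krt19 were lower by more in mouse 5, whose LY6D+ Sca1-high library was the low one.

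The Sca1-high LY6D+ library of mouse 5 was examined further. It was the lowest of the 12 for 1739 of the genes tested (8.64%), and no other library correlated less with the rest (median r 0.807). Krt18 on its brightest probe set lay 4.73 below the next lowest library, a gap that only Hamp, the hepcidin gene, exceeded among all genes tested. On a second, dimmer Krt18 probe set this library was at 4.01 and the next lowest, Sca1-high LY6D+ of mouse 1, at 4.95. Krt8 lay 1.97 below its next lowest library, and 36 genes (0.179%) had a gap at least that wide. Krt19 lay 0.43 below, as 412 genes (2.05%) did or more, and Krt7 was not at its lowest there.

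In the same library, 5 of 14 general epithelial genes were also at their lowest of 12, as were 8.64% of all genes tested. The general epithelial ones included Epcam, an epithelial adhesion molecule (7.81, next lowest 9.16), Cldn4, a tight junction protein (8.69, next lowest 10.81), and Cdh1, the epithelial cadherin (8.61, next lowest 8.94). Of 21 epithelial transcription factors, 7 were lowest there, among them Foxa1 (4.47, next lowest 5.99) and Grhl2 (3.68, next lowest 3.81). Of 15 genes of keratin linkers and desmosomes, 4 were lowest there (Jup, Pkp2, Dsc2 and Fam83h). Pkp2 (3.73, next lowest 3.77) and Dsc2 (3.94, next lowest 4.19) were near that median in this library. None of 11 basal and squamous keratins was, but the luminal LY6D- libraries held lower values of Krt14 and Krt17. Within the Sca1-high gate this library had the lowest mean over the 11 (5.71, against 5.81 to 6.45 in the other 3), with Krt14 at 7.89 (8.96 to 10.41 in the others) and Krt17 at 8.98 (9.45 to 11.57). Of other markers, 3 of 15 myeloid, 2 of 9 seminal vesicle, 1 of 11 lymphoid, 0 of 11 fibroblast and 0 of 9 smooth muscle genes were lowest in this library. None of 14 endothelial genes was lowest there, and their mean of 7.31 was the highest of the 12. This mean was 6.70 in the Sca1-high LY6D- library of mouse 1, and 6.55 and 6.41 in the basal LY6D- libraries of mice 3 and 5. In those libraries, in the same order, Krt18 was 10.02, 10.13 and 11.07, and Krt8 was 8.45, 8.88 and 10.91. Of the 47 other keratins tested, 3 were lowest there (Krt12, Krt42 and Krt88). Whether other cells in the gate had a part in the low keratin signal was not tested.

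Endothelial and myeloid markers differed between the gates. The mean over 14 endothelial genes ranged from 4.12 to 4.53 in luminal, from 5.62 to 7.31 in Sca1-high and from 4.22 to 6.55 in basal libraries (the higher values in both LY6D- libraries), although cells had been sorted as CD31-negative; 2 of the 14 genes were called higher in the Sca1-high than in the luminal gate (Emcn by 5.69 ± 0.66, limma adjusted p = 0.0203, and Adgrl4 by 5.14 ± 0.74, limma adjusted p = 0.0469). The mean over 15 myeloid genes ranged from 6.45 to 7.51 in luminal, from 4.69 to 6.20 in Sca1-high and from 4.37 to 4.95 in basal libraries, and 5 of the 15 were called lower in the basal than in the luminal gate. Of 12 prostate luminal genes, 2 were called lower in the basal gate (Azgp1, a secreted glycoprotein, by -3.32 ± 0.33, and Dpp4, a surface peptidase, by -2.22 ± 0.33; limma adjusted p = 0.00672 and 0.0336). Of 12 prostate basal genes, Col17a1, a hemidesmosome collagen, was called higher there (2.14 ± 0.32, limma adjusted p = 0.0322). No general epithelial gene of 14 was called in any of the 3 gate comparisons. Over all genes 0.417% were called for basal minus luminal, 0.139% for Sca1-high minus luminal and 0.00993% for Sca1-high minus basal. The part of these cell types in the keratin values was not tested.

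Other luminal and basal genes passed the test between these gates where Krt8 and Krt18 did not. Of 11 basal and squamous keratins, 7 were positive for LY6D+ minus LY6D- in the luminal gate (median 0.17) and 0 were called, as over all genes. Among them, Krt14 gave 9.87 and 10.31 in the luminal LY6D+ libraries against 4.98 and 6.99 in the luminal LY6D- libraries of mice 4 and 5. Krt8 in those same 4 libraries was 10.18 and 10.07 against 9.63 and 10.57.

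Among the 51 keratins tested, Krt8 and Krt18 had the largest differences in size between Sca1-high and luminal gates (ranks 1 and 2), with Krt7 and Krt19 at ranks 6 and 7. These ranks rested on the Sca1-high LY6D+ library of mouse 5: without it Krt14 ranked 1, Krt7 ranked 4 (1.59), Krt8 ranked 7 (-0.89) and Krt19 ranked 10 (-0.47), and Krt18 was at -0.33. For basal against luminal they ranked 49 (Krt8) and 17 (Krt18), with Krt7 at 7 and Krt19 at 9. Over the 47 other keratins the median was -0.01 for basal minus luminal (range -0.43 to 3.75) and 0.17 for Sca1-high minus luminal (range -0.38 to 1.38). The only keratin called was Krt16, a keratin of activated squamous epithelium, for basal minus luminal (9.02 ± 0.58 against 5.27 ± 1.75, SD, n = 4 each; 3.75 ± 0.53, limma adjusted p = 0.0269).

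**Figure D3:**
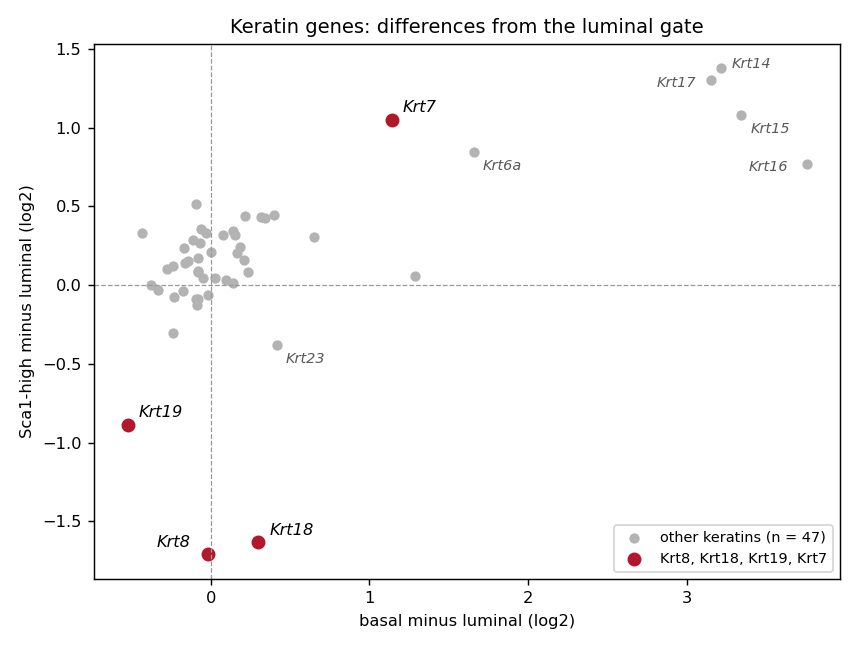
Log2 difference from the luminal gate for the 51 keratins tested, basal minus luminal (x axis) against Sca1-high minus luminal (y axis); each point is a gene and both axes share the luminal libraries. Krt8 and Krt18 lie lowest (-1.71 and -1.63 on the y axis, or -0.89 and -0.33 without the Sca1-high LY6D+ library of mouse 5), Krt7 lies at 1.14 and 1.05, and the basal keratins Krt14 to Krt17 lie between 3.15 and 3.75 on the x axis.

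The other simple and ductal keratins in a fixed list were Krt20, Krt23, Krt80, Krt4 and Krt13. They held 0 called of 5 in each gate comparison, where at most 0.417% of all genes were called. Their median was 0.44 for Sca1-high minus luminal against 0.07 over all genes. Krt4, a keratin of stratified mucosa and of proximal prostate ducts, had the smallest p for a difference from luminal. It was at 0.52 ± 0.19 for Sca1-high minus luminal (limma adjusted p = 0.523) and at 0.61 ± 0.19 for Sca1-high minus basal (limma adjusted p = 0.381). Of 11 basal and squamous keratins, 1 was called (Krt16), 8 were positive for basal minus luminal, and their median was 1.28. Krt5 itself was not tested, since it had no probe set with a single symbol.

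The partners of the keratin network gave no calls in the gate comparisons. Over all genes tested, 0.417% were called for basal minus luminal, 0.139% for Sca1-high minus luminal and 0.00993% for Sca1-high minus basal. At such shares lists of 15 or 21 genes would seldom hold a call. Of 15 linkers and desmosome genes, 12 were positive for basal minus luminal (median 0.69, against -0.03 over all genes) and 8 for Sca1-high minus luminal (median 0.01). Those with the smallest p for a difference from luminal were Ppl, the keratin linker periplakin (1.98 ± 0.44, limma adjusted p = 0.126), and Pkp1, a desmosomal plaque protein (1.25 ± 0.29, limma adjusted p = 0.153), both for basal minus luminal. Of 15 other intermediate filament genes, 4 were positive for basal minus luminal, with Vim, the mesenchymal filament vimentin, at -1.34 ± 0.36 (limma adjusted p = 0.224) and Des, the muscle filament desmin, at -0.63 ± 0.28 (limma adjusted p = 0.527). Of 21 epithelial transcription factors, 13 were positive for basal minus luminal and 5 for Sca1-high minus luminal, with medians of 0.33 and -0.21. Foxa1, a pioneer factor of prostate epithelium, was at 1.56 ± 0.48 for basal minus luminal (limma adjusted p = 0.291), and Gata3 at -1.04 ± 0.33 for Sca1-high minus luminal (limma adjusted p = 0.412).

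LY6D class was compared within each gate, where both libraries of a pair came from 1 mouse. No member was called in any gate, over the gates, or in the differences between gates, with a limma adjusted p of 0.999 or more throughout; percent called over all genes was 0 in luminal, 0 in Sca1-high and 0.00993% in basal cells, 0 over the gates, and 0 for each difference between gates. At an unadjusted p under 0.05 limma held 716 genes in luminal, 486 in Sca1-high and 443 in basal cells and 528 over the gates. Krt8 was at 0.03 ± 0.96 in luminal, -0.59 ± 0.96 in Sca1-high and 0.40 ± 0.96 in basal cells (log2, LY6D+ minus LY6D-). Krt18 was at -0.27 ± 1.26, -2.34 ± 1.26 and 0.80 ± 1.26, Krt19 at -0.16 ± 0.66, -0.71 ± 0.66 and 0.45 ± 0.66, and Krt7 at -0.14 ± 0.66, -0.36 ± 0.66 and 0.49 ± 0.66. These SE values rest on the spread shared by all groups. Fitted on the libraries of each gate alone, the SE of Krt18 was 0.38 in luminal, 1.72 in Sca1-high and 0.42 in basal cells. The Sca1-high value of Krt18 again turned on the pair of libraries: without the LY6D+ library of mouse 1 it was -4.94 (limma adjusted p = 0.0235) and the difference from the basal gate -5.74 (limma adjusted p = 0.0274), both with 1 library in the Sca1-high LY6D+ group and its spread taken from the other groups. Without the library of mouse 5 it was 0.26. The Ly6d transcript did not follow the sort on LY6D protein in every pair. In mouse 5 of the Sca1-high gate the sample labelled LY6D+ had 4.70, against 7.37 in its LY6D- counterpart, the highest of the 12 libraries, so the low keratin library had less Ly6d signal than its LY6D- partner. In the luminal gate Ly6d was 4.81 and 5.20 in LY6D+ against 5.11 and 4.61 in LY6D- libraries (mice 4 and 5). In the Sca1-high gate of mouse 1 it was 5.54 in LY6D+ against 4.96 in LY6D-. In the basal gate it was 5.93 and 5.96 in LY6D+ against 4.86 and 6.03 in LY6D- libraries (mice 3 and 5).

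Endothelial and seminal vesicle markers were split by LY6D class in the basal gate, with no gene called. Of 14 endothelial genes 0 were positive for LY6D+ minus LY6D- there (median -1.56, against 0.02 over all genes), and 9 of 9 seminal vesicle genes were positive (median 1.37). The endothelial mean was 4.22 and 4.44 in basal LY6D+ and 6.55 and 6.41 in basal LY6D- libraries (mice 3 and 5). Their part in the basal LY6D differences of the keratins was not tested.

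The pairs split by mouse. In mice 4, 1 and 3 the LY6D+ library was the brighter one for Krt8 by 0.56 (luminal), 1.29 (Sca1-high) and 1.18 (basal), and in mouse 5 the differences were -0.50, -2.47 and -0.38. For Krt18 they were 0.30, 0.47 and 1.08 in mice 4, 1 and 3 and -0.83, -5.15 and 0.53 in mouse 5. For Krt19 they were 0.25, 0.01 and 1.13, and then -0.56, -1.43 and -0.23. For Krt7 they were 0.19, 1.08 and 0.77, and then -0.46, -1.81 and 0.21. Over the 4 genes on their brightest probe sets, 12 of 12 differences were positive in mice 1, 3 and 4, and 10 of 12 were negative in mouse 5. These counts repeat the same 3 pairs of libraries for each gene, so the 12 are not independent. On a second, dimmer Krt18 probe set the differences in mice 4, 1 and 3 were -1.14, -4.09 and 1.50. Krt8 and Krt19 had all 3 positive and all 3 negative, as 299 of all genes tested did (1.48%), while 684 (3.40%) had the opposite pattern.

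**Figure D4:**
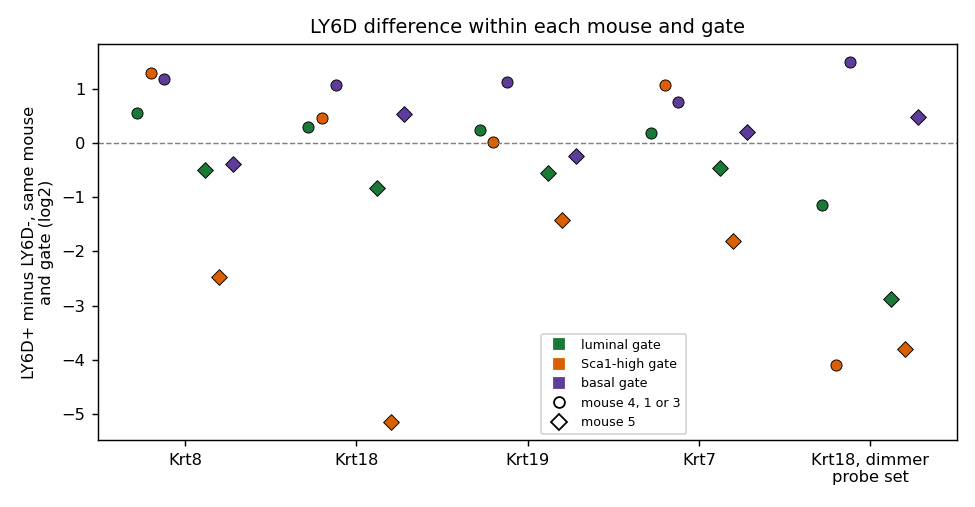
LY6D+ minus LY6D- difference in log2 signal (y axis) within each gate and mouse, for the 4 genes and for the dimmer Krt18 probe set (x axis). Circles are pairs of mouse 4, 1 or 3, diamonds those of mouse 5, and colours the gates. All 12 circles of the 4 genes on their brightest probe sets lie above 0, the lowest at 0.01 for Krt19. Of their 12 diamonds, 10 lie below 0.

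Krt18 had a second, dimmer probe set with a single symbol, and the probe sets disagreed. The dimmer one gave 9.62 and 7.69 in luminal LY6D+ against 10.76 and 10.57 in luminal LY6D- libraries (mice 4 and 5). It gave 4.95 and 4.01 in Sca1-high LY6D+ against 9.04 and 7.80 in Sca1-high LY6D- libraries (mice 1 and 5), and 10.45 and 11.08 in basal LY6D+ against 8.96 and 10.60 in basal LY6D- libraries (mice 3 and 5). On it both LY6D+ libraries of the Sca1-high gate were low, whereas on the brightest probe set only that of mouse 5 was. The brightest minus the dimmer ranged from -0.24 to 5.55 over the 12 libraries, the latter in the Sca1-high LY6D+ library of mouse 1. Which probe set follows the Krt18 transcript was not tested.

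On the dimmer probe set the Sca1-high gate mean was 6.45 ± 2.36, against 9.66 ± 1.41 in luminal and 10.27 ± 0.92 in basal cells (SD, n = 4 each). The differences were -3.21 ± 0.52 from luminal and -3.82 ± 0.52 from basal, with limma adjusted p of 0.0738 and 0.0859. Without the LY6D+ library of mouse 5 they were -2.98 and -3.59 (limma adjusted p = 0.181 and 0.138), and without the basal LY6D- library of mouse 3 the latter was called (-4.23, limma adjusted p = 0.0217). LY6D+ minus LY6D- on this probe set was -2.01 ± 0.74 in luminal, -3.94 ± 0.74 in Sca1-high and 0.99 ± 0.74 in basal cells, with no limma adjusted p below 0.999. This probe set was brought in after its values had been seen.

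**Figure D5:**
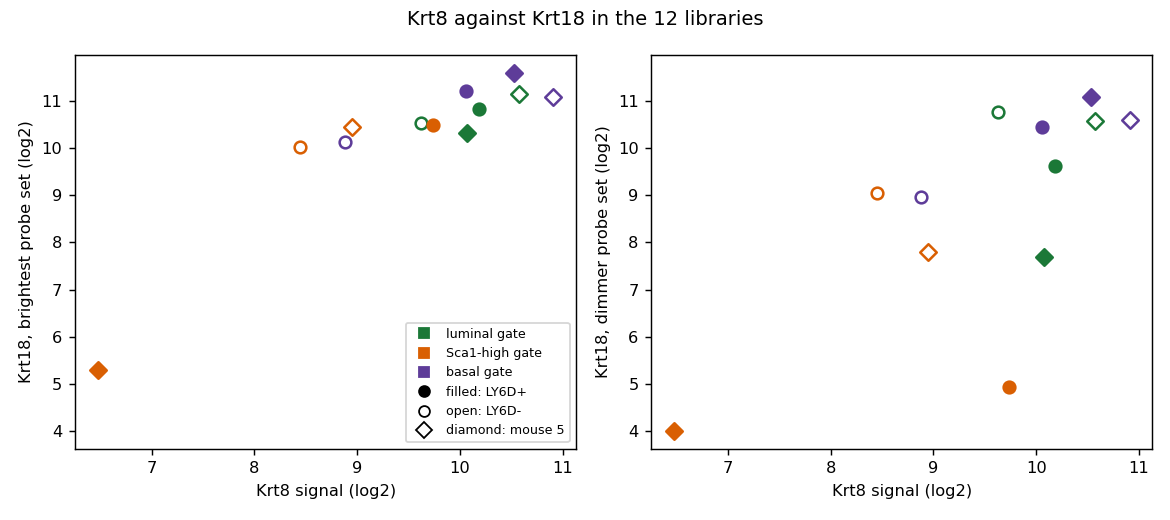
Krt8 log2 signal (x axis) against Krt18 log2 signal (y axis) in the 12 libraries, on the brightest Krt18 probe set (left) and on the dimmer one (right); colours are gates, filled symbols LY6D+, diamonds mouse 5. On the left 11 libraries lie between 10.02 and 11.60 on the y axis and 1 at 5.30, and on the right the Sca1-high LY6D+ library of mouse 1 also lies low, at 4.95.

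Across libraries Krt8, Krt18 and Krt19 ran together on their brightest probe sets and Krt7 ran apart. Over the 12 libraries, Pearson's r was 0.903 between Krt8 and Krt18 (Spearman's rho 0.818), 0.859 between Krt8 and Krt19 (rho 0.874) and 0.765 between Krt18 and Krt19 (rho 0.552). Without the Sca1-high LY6D+ library of mouse 5, r over the 11 others was 0.817, 0.716 and 0.537. Krt7 had r of 0.280 with Krt8, 0.422 with Krt18 and 0.160 with Krt19, and of -0.01, 0.289 and -0.12 without that library. By rho Krt8 was closer to Krt19 than to Krt18. The 2 Krt18 probe sets had r of 0.750, and 0.575 without that library, and Krt8 had r of 0.698 and 0.395 with the dimmer one. These values are descriptions: libraries share mice and gates.

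The genes whose signals were most like a member's were listed by Pearson's r over the 12 libraries. For Krt8 they were Nme1, a nucleoside diphosphate kinase (0.975, and 0.961 without the low library), Srsf5, Tmbim6, Gm13545 and Cldn4. For Krt18 they were Egr1, an immediate early transcription factor (0.972, falling to 0.638 without that library), Gm6682, Gm13194, Rps12 and Cldn4. For Krt19 they were Arfgap3, a Golgi GTPase-activating protein (0.948, then 0.910), Rps15a-ps5, Naca, Jun and Atf3. For Krt7 they were Zfp939, a zinc finger protein (0.913, then 0.905), Rras2, Elp3, Ube2q2 and Ivl, the cornified envelope protein involucrin (0.845, then 0.832). Ranked over the 11 libraries instead, 2 of the 5 were shared for Krt8, 0 for Krt18, 0 for Krt19 and 2 for Krt7. The 99th percentile of r over all genes was 0.766 for Krt8, 0.720 for Krt18, 0.744 for Krt19 and 0.653 for Krt7.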

How the data were processed

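RNA of 12 sorted cell samples was hybridized to arrays. The authors deposited values on a log2 scale for each probe set. Per the submitters' processing notes, RMA and oligo were used; versions and order are not given in the sources used here. The deposited values (0.695 to 14.3, array medians 3.76 to 3.99) were used without further normalization; the number of arrays limits the precision, and no detection calls were used. Of 41345 probe sets, 23521 had 1 gene symbol in the platform annotation, 1814 several and 16010 none; the brightest was kept for each of 22180 genes. Genes with at least 2 arrays above the lower quartile (2.98) were tested.

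Groups were taken from the sample labels. limma 3.58.1 in R 4.3.3 fitted a mean per group and eBayes with defaults (residual degrees of freedom 6, prior 3.28), with Benjamini-Hochberg adjustment over all genes within a comparison and a threshold of 0.05; SE values are moderated. Libraries come from 4 mice, and p-values measure only the spread between these samples. The same mouse supplied both LY6D classes of a gate, so the mouse number pairs libraries; deviations of a pair correlated at 0.02 in luminal, 0.15 in Sca1-high and 0.41 in basal cells. Alternatives were mouse as a block, other scaling, filters, probe set rules and moderation, subsets of mice, and each library left out. The fit was tested on simulated data.

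The members and all lists were chosen with earlier results of these data known. Named were the members and, per list, up to 4 called genes or else up to 2 with the smallest p for a gate difference from luminal; per member, the 5 genes of highest r. Besides the lists of the report, proximal luminal, urothelial, seminal vesicle, lymphoid, fibroblast, smooth muscle, mesothelial and erythroid markers were examined. Sequences are from RefSeq promoters, which matched 3 of 4 members; Krt19 was the fourth.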

Additional observations from a re-analysis of the deposited data

Results flagged for a closer look

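Within the Sca1-high gate, 1 of 4 libraries stood far from the other 3 for a pair of the genes. Krt18 was 5.30 in the LY6D+ library of mouse 5, with a gap of 0.909 of the gate's range, and Krt19 was 4.56 in the same library, with a gap of 0.867 of the range; Dixon's 95% critical value for 4 values is 0.829. Over the 15 sets of 4 libraries examined (4 genes and the dimmer Krt18 probe set in 3 gates) these were the 2 that passed. Chance passes about 1 in 20 sets of independent values from 1 normal distribution. That rate cannot be applied here: each set mixes LY6D classes and mice, the sets share libraries, and both passes are the same library.

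The LY6D difference ran in opposite directions by mouse for Krt8 and Krt19. The mean LY6D+ minus LY6D- difference was 1.01 over the pairs of mice 1, 3 and 4 and -1.12 over the 3 pairs of mouse 5 for Krt8, and 0.46 and -0.74 for Krt19. Both means of mouse 5 include the low Sca1-high LY6D+ library, whose pair was at -2.47 for Krt8 and -1.43 for Krt19. The luminal and basal pairs of mouse 5 were at -0.50 and -0.38 for Krt8 and at -0.56 and -0.23 for Krt19. This difference between mice was not tested, and the pairs of mouse 5 share an animal.

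On the dimmer Krt18 probe set the LY6D difference was negative in both mice of the luminal and of the Sca1-high gate and positive in both of the basal gate. Luminal minus basal was -3.00 and Sca1-high minus basal -4.93 on the log2 scale. In limma neither difference between gates passed the threshold after Benjamini-Hochberg adjustment.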

How the results depend on the processing

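Over 40 results of the 4 genes (10 comparisons each), 426 of 480 values with 1 library left out and 416 of 438 values under the other alternatives kept their direction and their side of the threshold. Leaving out a library from a group outside a comparison cannot change the difference, nor can another filter or moderation. Part of the agreement in direction was therefore fixed in advance, and these counts overstate how stable the results were. With mouse as a replicate block, fixed or random, no member's call changed. In basal minus luminal, Krt8 reached 0.40 (fixed block), 0.043 (random block), 0.038 (arrays centred on their medians) and 0.40 (mouse 5 alone), and Krt18 -0.0074 (mice 1, 3 and 4 alone). In Sca1-high minus basal, Krt19 was 0.084 and Krt7 0.27 after quantile normalization, 0.19 and 0.32 with 3 libraries of mouse 5 left out (basal, both classes, and luminal LY6D-), and 0.65 and 0.67 in mice 1, 3 and 4 alone. For LY6D in luminal cells, Krt8 was -0.060 after quantile normalization, and Krt18 0.040 and Krt19 0.39 without the 3 libraries. For LY6D over gates, Krt8 was 0.36, Krt19 0.27 and Krt7 0.057 without the 3 libraries; Krt8 was 1.01, Krt18 0.62, Krt19 0.46 and Krt7 0.68 in mice 1, 3 and 4; and Krt7 was 0.0033 after quantile normalization. Slc4a1, Sca1-high minus luminal, was 0.27 in mice 1, 3 and 4 and ranged from -0.58 to 0.10 with 1 library out. The cause of these changes was not tested. Centring moved the median of all genes for Sca1-high minus basal from 0.11 to -0.01, the only gate comparison it moved by over 0.1.

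With each library left out in turn, Krt8 ranged from -0.53 to 0.49 in basal minus luminal, Krt18 from -2.93 to -0.33 in Sca1-high minus luminal, and in Sca1-high minus basal Krt18 from -3.23 to -0.63, Krt19 from -0.81 to 0.080 and Krt7 from -0.62 to 0.44. For LY6D in luminal cells the ranges were -0.45 to 0.50 (Krt8), -0.57 to 0.040 (Krt18), -0.70 to 0.39 (Krt19) and -0.56 to 0.29 (Krt7). In Sca1-high cells they were -2.22 to 1.04, -4.94 to 0.26, -1.53 to 0.12 and -1.43 to 0.71 in the same order. In basal cells they were -0.62 to 1.41 for Krt8, -0.44 to 1.34 for Krt19 and -0.063 to 1.03 for Krt7. Over gates they were -0.60 to 0.49 (Krt8), -1.47 to 0.27 (Krt18), -0.44 to 0.16 (Krt19) and -0.36 to 0.35 (Krt7). For the LY6D difference of Sca1-high minus luminal they were -2.25 to 1.01, -4.67 to 0.52, -1.38 to 0.27 and -1.30 to 0.84 in that order, for basal minus luminal -0.64 to 1.38 (Krt8) and -0.29 to 1.49 (Krt19), and for Sca1-high minus basal -2.62 to 0.64 (Krt8), -5.74 to -0.55 (Krt18) and -1.92 to 0.22 (Krt7). The 4 calls among these were all of Krt18 without the Sca1-high LY6D+ library of mouse 1, which leaves 1 library in that group.

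The number of genes called moved more. For basal minus luminal it was 84, and 30 with centring, 0 without the 3 libraries, 3 in mouse 5 and 2 in mice 1, 3 and 4, with 15 to 255 when 1 library was left out. For Sca1-high minus luminal it was 28, and 104 with mouse as a fixed block, 17 with centring, 13 with only the groups compared, 0 without the 3 libraries, 13 in mouse 5 and 0 in mice 1, 3 and 4 (13 to 165 with 1 library out). For Sca1-high minus basal it was 2, and 80 with the fixed block, 1 with the mean of probe sets, 4 with trend and robust moderation, 1 with only the groups compared, 1 in mouse 5 and 0 in mice 1, 3 and 4 (2 to 133). For LY6D in luminal cells it was 0, and 1 with the random block, 2 with trend and robust moderation and 1 without the 3 libraries (0 to 70). For LY6D in basal cells it was 2, and 0 with the fixed block, quantile normalization, the mean of probe sets, trend and robust moderation, only the groups compared, or without the 3 libraries (0 to 3). With 1 library out it ranged from 0 to 17 for LY6D in Sca1-high cells, 0 to 2 over gates, and 0 to 7, 0 to 11 and 0 to 14 for the LY6D differences of Sca1-high minus luminal, basal minus luminal and Sca1-high minus basal. The LY6D contrasts between gates could not be fitted within mouse 5 or within mice 1, 3 and 4, where each group has 1 library.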

Other observations

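Among the marker lists not described with the keratins, Upk1a, a urothelial plaque protein, was lower in the Sca1-high than in the luminal gate (-4.32 ± 0.43, limma adjusted p = 0.00933) and in the basal than in the luminal gate (-3.96 ± 0.43, limma adjusted p = 0.0117), and was the only one of 9 urothelial genes called in either comparison. Seminal vesicle genes had 0 of 9 called; Svs2, a seminal vesicle secretory protein, was 12.63 ± 0.20 in luminal, 11.76 ± 0.29 in Sca1-high and 10.83 ± 0.90 in basal cells (SD, n = 4 each), and Spinkl was at -3.66 ± 0.73 for Sca1-high minus luminal (limma adjusted p = 0.141). Of the 7 mesothelial genes 1 was called, Dpp4, which also stands in the prostate luminal list. No gene was called in the proximal luminal (7 tested), lymphoid (11), fibroblast (11), smooth muscle (9) or erythroid (1, Slc4a1) lists in any comparison of gates. Over all genes at most 0.417% were called in such a comparison. Among differences from the luminal gate, the lowest limma adjusted p of the proximal luminal list was that of Clu (-0.98 ± 0.25, 0.194). That of the fibroblast list was for Dcn (1.51 ± 0.29, 0.0725) and that of the smooth muscle list for Myh11 (-0.81 ± 0.18, 0.121), all in basal minus luminal. Nkg7 of the lymphoid list was at -0.70 ± 0.20 (0.232).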
